A study of Rattus norvegicus with 14 samples.

Results

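The endothelin receptors and endothelial nitric oxide synthase were followed in sieved cortical glomeruli, the filtering tufts of the kidney, of male Dahl salt-sensitive rats (strain SS/JrHsdMcwiCrl). The gene set was defined by 4 rat Ensembl IDs, for Edn1 (ENSRNOG00000014361), Ednra (ENSRNOG00000012721), Ednrb (ENSRNOG00000010997) and Nos3 (ENSRNOG00000009348). The count table used here holds 12934 IDs, among them 3 of these 4. The ID of Edn1 was not among them, so the ligand was not analysed here and every result below concerns the receptors and the synthase. The list that defined the set paired symbols with IDs. Neither the deposited tables nor the RefSeq table used here gives that pairing, so it could not be checked.

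Of the 14 libraries, 7 were of rats given high salt chow with 4% NaCl, and 7 were of rats given normal salt chow with 0.4% NaCl. Feeding began at 8 weeks of age and lasted 21 days. The strain is inbred and becomes hypertensive on a salt-rich diet, and both groups were of this strain. There was no salt-resistant strain among the samples, so the comparison is of diets within 1 strain. Nothing in the labels ties each library to its own animal, and p-values therefore measure the spread between these libraries, which may be technical.

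Endothelin-1 is a peptide made mainly by endothelial cells that constricts vessels. Its type A receptor, encoded by Ednra, sits on smooth muscle and mesangial cells and drives contraction and growth. The type B receptor, encoded by Ednrb, sits on endothelial cells, where it clears endothelin-1 from the circulation and triggers release of nitric oxide, and on collecting duct cells, where it promotes sodium excretion. Nos3 encodes the endothelial enzyme that makes nitric oxide from arginine, which relaxes the same vessels.

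Libraries held 13797146 to 18151197 counts. In high salt library 15, 64.85% of the counts fell on the 10 most abundant genes of the table, against 30.79% to 53.73% in the other 13 libraries. Its scaling factor (TMM, a trimmed mean of M-values) was 0.66, the lowest of the 14. High salt library 21 lay at the other end, with the lowest such share, 30.79%, and the highest factor, 1.288. No cell type marker could be named in these files, so neither the glomerular identity of the samples nor the share of endothelial, mesangial or tubule cells was checked. In such bulk samples, fewer cells of a type and less RNA per cell cannot be told apart.

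Nos3 and Ednrb were abundant transcripts of these glomeruli and Ednra was scarce. Levels are given as CPM, the count scaled to the library's total after TMM correction. Each transcript is read near its 3' end in this assay, so the count does not grow with transcript length, although the share of transcripts captured can differ between genes. Nos3 averaged 136 CPM over the 14 libraries and ranked 798 of 12934 genes, above 93.8% of them. Ednrb averaged 109 CPM and ranked 1103, above 91.5% of genes. Ednra averaged 4.49 CPM and ranked 8370, above 35.3% of genes, where the median gene stood at 11.4 CPM. The receptors did not overlap in any library: the highest Ednra level in any library was 6.87 CPM and the lowest Ednrb level 48.9 CPM. Nos3 and Ednrb exchanged places between libraries, and their ranges overlapped.

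The depth behind these values differed. Ednra was counted 27 to 119 times per library, Ednrb 681 to 2877 times and Nos3 1110 to 4613 times. For Ednra, counting error alone gives a coefficient of variation of 13.5% on high salt and 11.9% on normal salt, and the observed values were 33.6% and 25.4%. For Ednrb, counting error gives 2.84% and 2.33%, and the observed values were 34.3% and 26.5%. For Nos3 they were 2.35% and 2.33% from counting against 33.9% and 46.8% observed. Libraries of the same diet thus differed in all 3 genes by more than counting error. The median gene with at least 10 CPM varied by 18.1% on high salt and 18.7% on normal salt (6762 genes), less than either of the abundant members.

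The first comparison asks whether the receptors and the synthase differ between the diets. The Ednra level ran from 2.51 to 5.99 CPM on high salt, with a median of 3.86 and a mean of 4.14 ± 1.39 CPM (SD, n = 7). On normal salt it ran from 3.42 to 6.87 CPM, with a median of 4.96 and a mean of 4.84 ± 1.23 CPM (SD, n = 7). The ranges overlapped, and 5 of 7 high salt libraries lay below the normal salt median.

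The Ednrb level ran from 48.9 to 138 CPM on high salt, with a median of 84.3 and a mean of 91.5 ± 31.4 CPM (SD, n = 7). On normal salt it ran from 89.7 to 182 CPM, with a median of 115 and a mean of 126 ± 33.3 CPM (SD, n = 7). High salt libraries 13, 15, 17 and 21 lay below every normal salt library, whereas high salt libraries 9, 11 and 23 lay within the normal salt range.

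The Nos3 level ran from 78.1 to 212 CPM on high salt, with a median of 116 and a mean of 131 ± 44.4 CPM (SD, n = 7). On normal salt it ran from 70.2 to 269 CPM, with a median of 129 and a mean of 142 ± 66.5 CPM (SD, n = 7). Every high salt library lay within the normal salt range, and the lowest and highest libraries of the series for this gene were both on normal salt.

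**Figure D1:**
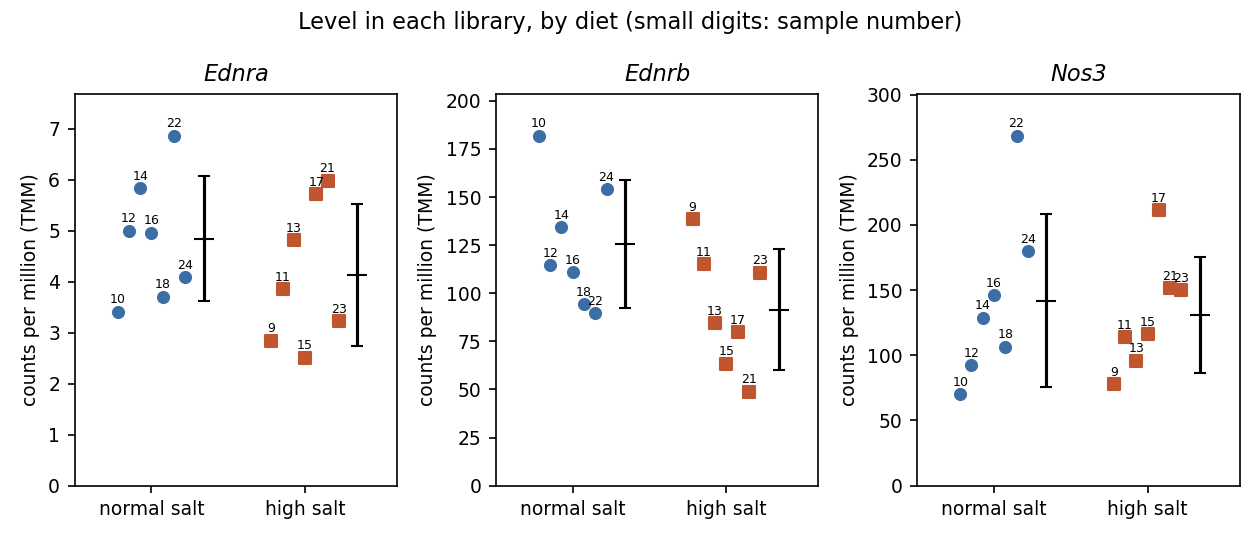
Level of Ednra, Ednrb and Nos3 in each library in CPM after TMM scaling, by diet. Each point is 1 library with its sample number, and the bar beside each group is the mean with 1 SD (n = 7). The diets overlap in every panel, and 4 high salt libraries (13, 15, 17 and 21) lie below all normal salt libraries for Ednrb.

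None of the 3 genes passed the test for a diet difference. edgeR's quasi-likelihood test, with Benjamini-Hochberg adjustment over all 11158 genes tested, called 0 of the 3 genes and 0% of all genes at an adjusted p below 0.05. DESeq2 and limma voom also called 0 of the 3. At an unadjusted p below 0.05 edgeR listed 1 of the 3, Ednrb, where 1.81% of all genes were listed and 1.15% were listed as lower on high salt. Ednrb was also the only one of the 3 listed by DESeq2 (unadjusted p = 0.0425) and by limma voom (unadjusted p = 0.0237). Both tools listed a larger share of all genes at this threshold than edgeR did. With limma voom the share was close to 0.05, the share reached when no gene differs. All 3 tools read the same counts, so their listings of Ednrb are not separate evidence of a diet difference.

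Ednrb had a log2 fold change of -0.46 ± 0.22 (SE) on high salt, a level 1.37-fold lower. The 95% interval ran from -0.92 to -0.00084, or from 0.53 to 0.999 as a ratio (edgeR, unadjusted p = 0.0496, adjusted p = 0.9997). The upper end of this interval touched no change, and it passed to the other side of 0 with RLE scaling, where the unadjusted edgeR p was 0.0504. Of the 11158 genes tested, 1.78% had a smaller p. High salt library 15 had the largest share of counts on the 10 most abundant genes. Without it, the log2 fold change of Ednrb was -0.39 (edgeR, unadjusted p = 0.0978). Over the 14 omissions of 1 library the log2 fold change ran from -0.59 without high salt library 9 to -0.34 without high salt library 21. The unadjusted edgeR p ran from 0.0128 without library 9 to 0.124 without normal salt library 10.

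Ednra had a log2 fold change of -0.22 ± 0.23 (SE), with a 95% interval from -0.70 to 0.26 (edgeR, adjusted p = 0.9997). As a ratio of high to normal salt, the data allowed values between 0.615 and 1.19. Nos3 had a log2 fold change of -0.11 ± 0.26 (SE), with a 95% interval from -0.67 to 0.45 (edgeR, adjusted p = 0.9997), which allowed ratios between 0.628 and 1.36. The sign for Nos3 was not stable: without normal salt library 22, which held its highest level, the log2 fold change was 0.12, and with the sample number as a covariate it was 0.03. In the edgeR fit of all 14 libraries with TMM factors, a 2-fold difference in either direction lay outside the interval of each of the 3 genes. Some other fits allowed a 2-fold lower level on high salt. The interval of Ednrb reached -1.21 within numbers 17 to 24 and -1.03 without library 9. For Ednra it reached -1.05 within numbers 9 to 16. Per the authors' deposited table, the log2 ratios of the diet means were -0.23 for Ednra, -0.46 for Ednrb and -0.11 for Nos3.

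**Figure D2:**
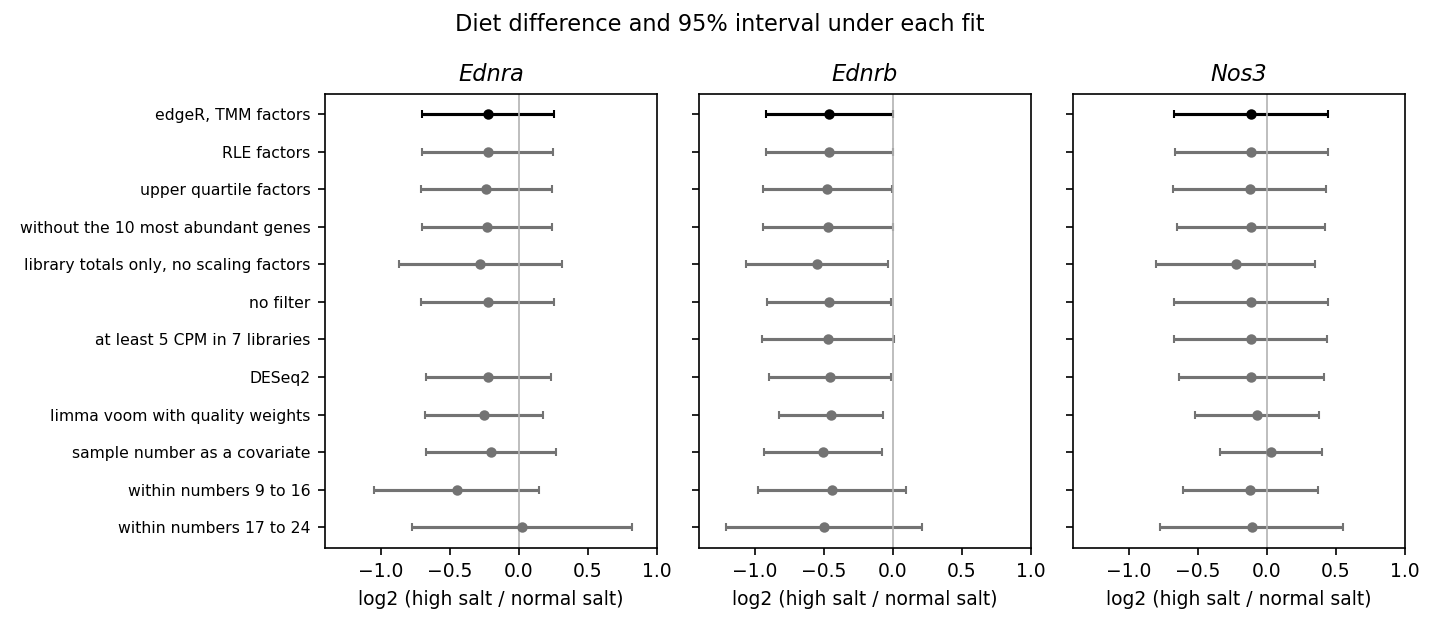
Log2 fold change of high over normal salt (points) with its 95% interval (bars) for each gene under the edgeR fit with TMM factors (black, top) and under other scalings, filters, tools, covariates and ranges of the sample number (grey). Ednrb lies between -0.55 and -0.44 in the fits shown, Nos3 between -0.23 and 0.03, and Ednra between -0.45 (within numbers 9 to 16) and 0.02 (within numbers 17 to 24). Ednra has no value where at least 5 CPM in 7 libraries was required.

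The sample numbers in the labels run from 9 to 24, odd on high salt and even on normal salt, and the labels do not say what they record. Since earlier results showed the libraries ordered by this number, the diet difference was also taken within ranges of it. Within numbers 9 to 16 (4 libraries a diet) the log2 fold changes were -0.45 for Ednra, -0.44 for Ednrb and -0.12 for Nos3. Within numbers 17 to 24 (3 libraries a diet) they were 0.02, -0.50 and -0.11. Ednrb was thus lower on high salt by a like amount in both ranges, and neither value passed the test (edgeR, unadjusted p = 0.0999 and 0.151, adjusted p = 0.957 and 0.999). With the number as a covariate, the log2 fold change of Ednrb was -0.50, with a 95% interval from -0.93 to -0.08 (edgeR, unadjusted p = 0.0240, adjusted p = 0.961). In the same fit the log2 fold change was -0.20 for Ednra and 0.03 for Nos3 (edgeR, adjusted p = 0.968 and 0.993).

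The balance of the receptors was then taken as the number of Ednrb counts per Ednra count, a ratio within each library in which the scaling cancels. On high salt there were 48.6 Ednrb counts per Ednra count in library 9, 29.8 in library 11, 17.5 in library 13, 25.2 in library 15, 14.0 in library 17, 8.17 in library 21 and 34.4 in library 23. On normal salt there were 53.3 in library 10, 22.9 in library 12, 23.0 in library 14, 22.4 in library 16, 25.4 in library 18, 13.1 in library 22 and 37.7 in library 24. The type B receptor transcript outnumbered the type A transcript in every library of both diets. Because tags of different transcripts may be captured unequally, the ratio is better compared between libraries than read as molecules of receptor.

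The ratio differed between libraries by more than counting error. In library 21 its exact 95% binomial (Clopper-Pearson) interval was 6.75 to 9.97, and in library 10 it was 40.7 to 71.1. These intervals cover counting error only. The lowest values in the 2 diets were those of libraries 21 and 22, whose Ednra levels were the highest of their diet and whose Ednrb levels were the lowest of their diet.

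The receptor ratio did not pass a test for a diet difference. Its geometric mean was 22.0 on high salt and 25.9 on normal salt, and the log2 ratio was 4.46 ± 0.87 and 4.70 ± 0.64 (SD, n = 7 each). The difference of -0.23 on the log2 scale was within the spread (exact permutation test over 3432 splits, two-sided, p = 0.579). The 95% interval, from inverting that test, ran from -1.14 to 0.645, so that the data allowed a ratio between 0.454-fold and 1.56-fold that on normal salt. Without library 21 the difference was 0.00376, so its direction rested on 1 library. Within numbers 9 to 16 it was 0.00731 and within numbers 17 to 24 it was -0.56 (exact permutation p = 0.943 and 0.500, with 4 and 3 libraries a diet). With 3 libraries a diet this test cannot give a p below 0.05, so the second value decides nothing.

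**Figure D3:**
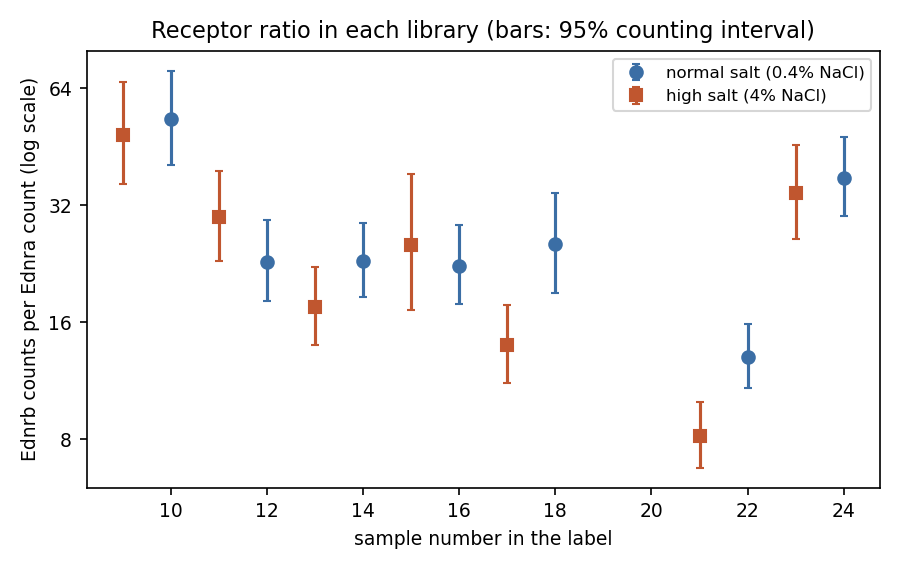
Ednrb counts per Ednra count (log axis) in each library against the sample number, with circles for normal salt, squares for high salt and bars for the exact 95% counting interval. The ratio is highest in libraries 9 and 10, lowest in 21 and 22, and higher again in 23 and 24, on both diets.

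Nos3 rose with the sample number, and the receptors did not pass that test. The trend was fitted with edgeR for every gene with diet in the model, and is given as the fitted log2 change over the 15 steps from number 9 to number 24. Of the 3 genes 1 passed at an adjusted p below 0.05, where 12.7% of all genes passed and 6.97% passed as higher at higher numbers. A count of 1 of 3 cannot be set apart from that background, and the result concerns Nos3 alone.

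Nos3 stood at 78.1 and 70.2 CPM in libraries 9 and 10, at 114 and 92.7 CPM in 11 and 12, and at 96.0 and 129 CPM in 13 and 14. It stood at 116 and 146 CPM in libraries 15 and 16, 212 and 107 CPM in 17 and 18, 152 and 269 CPM in 21 and 22, and 150 and 180 CPM in 23 and 24. The 4 libraries with the highest numbers all lay above the 7 with the lowest. The fitted change was 1.34 ± 0.28 (SE) on the log2 scale, 2.53-fold, with a 95% interval from 0.75 to 1.94 (edgeR, adjusted p = 0.0112). Of the 778 genes called as higher at higher numbers, 54 had a larger fitted change, and the median of the 778 was 0.81.

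The Nos3 trend was seen in each diet by itself, with wider intervals. On normal salt the fitted change was 1.61, with a 95% interval from 0.83 to 2.40, and on high salt it was 0.99, with an interval from 0.15 to 1.83. With 7 libraries in each fit, edgeR called 0 genes for the trend in either diet, with 2334 on normal salt and 1266 on high salt at an unadjusted p below 0.05 (adjusted p of Nos3 = 0.123 and 0.335, unadjusted p = 0.000968 and 0.0259). Across the 14 libraries the log2 level of Nos3 correlated with the number (Pearson r = 0.79, permutation p = 0.00076, adjusted over 5 relations with the number p = 0.0038, and Spearman rho = 0.83, permutation p = 0.00036, adjusted p = 0.0018). Numbers 23 and 24 lie farthest from the middle of the series, and leaving both out gave r = 0.82 (permutation p = 0.00093). Within normal salt r was 0.85 (n = 7, exact permutation p = 0.0155), and within high salt it was 0.73 (n = 7, exact permutation p = 0.0643). No change of the trend with diet passed the test (edgeR interaction, high minus normal salt -0.61 over the 15 steps, 95% interval -1.81 to 0.60, adjusted p = 0.998).

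Ednrb had a fitted change of -0.50 ± 0.29 (SE) over the 15 steps, with a 95% interval from -1.12 to 0.12 (edgeR, adjusted p = 0.251). Its course was not a straight line. Levels were 138 and 182 CPM in libraries 9 and 10, 48.9 and 89.7 CPM in libraries 21 and 22, and 111 and 154 CPM in libraries 23 and 24. Libraries 21 and 22 were the lowest of their diets, and libraries 23 and 24 stood above the median of theirs. Without libraries 23 and 24, an omission chosen after the data were seen, the slope of Ednrb over the same 15 steps was -1.47, with a 95% interval from -1.97 to -0.97, and it passed the test (edgeR, adjusted p = 0.000851). In that fit 2460 of 11155 genes were called, 1167 of them as lower at higher numbers, against 1418 of 11158 genes in the fit of all libraries. A call as such was thus common among all genes in that fit and was not particular to Ednrb. The p of Ednrb lay far below the threshold (edgeR, unadjusted p = 1.65e-05), and its rank among the genes of that fit was not taken. Without 1 library at a time the change ran from -0.84 without library 23 to -0.32 without library 9, and no such fit called the gene (lowest edgeR adjusted p = 0.0668).

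Ednra had a fitted change of 0.39 ± 0.36 (SE) over the 15 steps, with a 95% interval from -0.37 to 1.15 (edgeR, adjusted p = 0.474). Its levels were 2.85 and 3.42 CPM in libraries 9 and 10, 5.99 and 6.87 CPM in libraries 21 and 22, and 3.22 and 4.09 CPM in libraries 23 and 24. The highest level of each diet was thus in library 21 or 22, as the lowest level of Ednrb was. Without libraries 23 and 24 the slope of Ednra over the same steps was 0.95, with a 95% interval from 0.10 to 1.80, which did not pass the adjusted threshold (edgeR, adjusted p = 0.103).

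**Figure D4:**
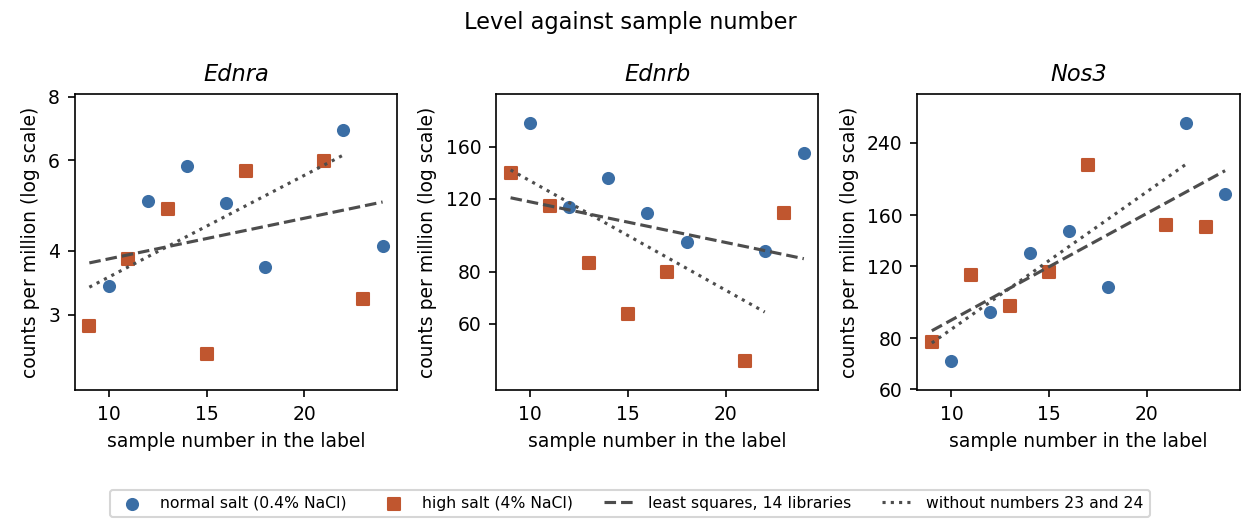
Level of each gene in CPM (log axis) against the sample number, with circles for normal salt and squares for high salt. Dashed lines are least-squares fits to the log2 levels of 14 libraries and dotted lines leave out numbers 23 and 24. Nos3 ascends along both lines, whereas the line for Ednrb steepens when numbers 23 and 24 are left out.

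The receptor ratio was also set against the number. Over the 14 libraries the correlation of the log2 ratio with the number was weak and did not pass (Pearson r = -0.39, permutation p = 0.166, adjusted p = 0.276, and Spearman rho = -0.31, permutation p = 0.273, adjusted p = 0.293). It was r = -0.84 (permutation p = 0.00074) once libraries 23 and 24 were left out, so the pooled value depended on those libraries. Within normal salt r was -0.35 (n = 7, exact permutation p = 0.454) and within high salt it was -0.48 (n = 7, exact permutation p = 0.281).

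The members were last compared with each other across the libraries, in 3 pairs of log2 CPM. Ednra and Nos3 tended to be high in the same libraries, with r = 0.58 (permutation p = 0.0307, adjusted over 3 pairs p = 0.0921) and rho = 0.54 (permutation p = 0.0490, adjusted p = 0.147). This did not pass after adjustment, and without the 2 libraries farthest from the median of Ednra r was 0.55 (permutation p = 0.0633). Once diet and number were taken out r was 0.63, with a p just under the threshold (permutation p of the residuals, adjusted over 3 pairs, 0.0482). The residuals were permuted without allowing for the fit of diet and number, so this p tends to be too small. The value is therefore a description and is not counted as a pass. Within normal salt r was 0.69 and within high salt 0.55 (n = 7 each, exact permutation p = 0.0875 and 0.195). Ednra with Ednrb gave r = -0.24 (permutation p = 0.409, adjusted p = 0.409) and rho = -0.27 (permutation p = 0.351, adjusted p = 0.351). Ednrb with Nos3 gave r = -0.36 (permutation p = 0.213, adjusted p = 0.319) and rho = -0.42 (permutation p = 0.133, adjusted p = 0.199). Once diet and number were taken out, r was -0.42 for Ednra with Ednrb and -0.19 for Ednrb with Nos3. Neither passed, and these values are likewise descriptions. The 2 transcripts known from endothelial cells, Ednrb and Nos3, thus showed no positive relation across these libraries.

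**Figure D5:**
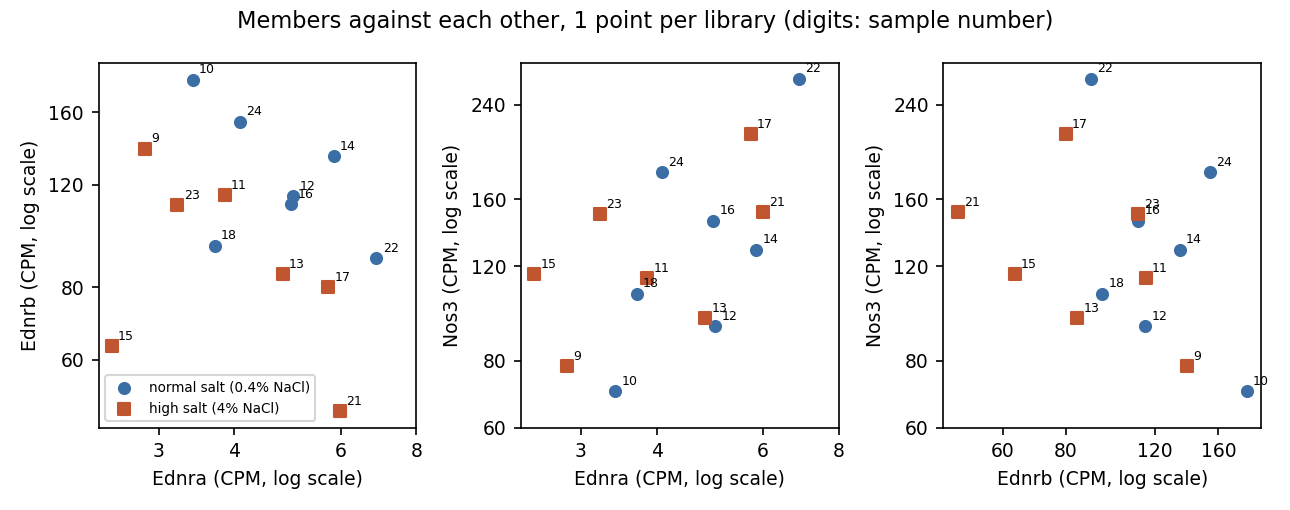
Each pair of genes in CPM (log axes), 1 point per library with its sample number, circles for normal salt and squares for high salt. Ednra and Nos3 ascend together (r = 0.58), and Ednrb descends weakly against each of them (r = -0.24 and -0.36).

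Among 8174 other genes compared over the 14 libraries, the pattern most like that of Nos3 was ENSRNOG00000020173 (r = 0.98, and 0.94 after diet and number were taken out), and Ednra ranked 1914. The pattern most like that of Ednrb was ENSRNOG00000013536 (r = 0.96, and 0.95 after diet and number were taken out), and Nos3 ranked 6077. For Ednra the highest r was 0.82 (0.80 after diet and number were taken out), and Nos3, at 0.58, ranked 393. These libraries share their scaling and depth, the genes were picked as the highest of many, and the files give neither ID a name, so the values are a description.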

How the data were processed

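Glomerular RNA of 14 libraries was sequenced as 3' tags (QuantSeq FWD kit of Lexogen, Illumina NextSeq), per the labels' protocols. The authors deposited raw counts per Ensembl gene ID and, per the file headers, a normalized signal per library with diet means, their signed fold and its log2. Raw divided by normalized values gave 1 constant per library. The submitters' processing notes name R 3.4.3, DESeq2 1.18.1 and GRCm38, a mouse build, although the IDs are of rat, so no coordinates are given. Any aligner or counter is not given in the sources used here.

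Counts were tested with edgeR 4.0.16 in R 4.3.3 (TMM, filterByExpr, robust quasi-likelihood F-test); 1776 IDs were filtered out, and all 3 genes analysed passed. Standard errors and 95% intervals were computed from each gene's F value. Log2 CPM used a prior count of 2. Permutation tests were exact for diets and for 7 libraries, and drew 100000 permutations for 14. DESeq2 1.42.0 and limma 3.58.1 were alternatives. The fits were also run on simulated counts, drawn independently for each gene and library. That setting lacks the correlation of neighbouring libraries, so it does not give the error rates of the tests in these data. The genes and tests were chosen with earlier results of these data known. Added after the data were seen were the edgeR trend and the correlations of single genes with the number within each diet, all fits without numbers 23 and 24 and with library totals only, the receptor ratio within ranges of the number, and alternatives of the interaction. Named genes were the members and the ID most like Ednrb and Nos3. The table of rat genes matched 0 of 12934 IDs, so 0 of the pathway and cell type lists were applied. No library was left out.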

Additional observations from a re-analysis of the deposited data

How the results depend on the processing

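The diet comparison called 0 genes under every alternative run, and Ednrb kept its sign in all of them. The sign of the diet difference changed for Nos3 with the number as a covariate (0.0322 on the log2 scale) and for Ednra within numbers 17 to 24 (0.0226), and the cause was not tested. Without 1 library at a time it ran from -0.32 to -0.12 for Ednra, from -0.59 to -0.34 for Ednrb and from -0.27 to 0.12 for Nos3, the last without normal salt library 22. The receptor ratio difference ran from -0.43 to 0.00376 over the same omissions and was 0.00731 within numbers 9 to 16. The count of genes called for the number trend was 2215 with DESeq2, 540 with library totals only, 2460 without numbers 23 and 24, and 0 within either diet, where fewer libraries entered. It ran from 451 (without library 22) to 2118 (without library 23) over single omissions. Nos3 was called in each of those 14 fits (1.11 to 1.55, highest edgeR adjusted p = 0.0401) and not within normal salt (1.61) or high salt (0.99). Ednrb was called for the trend only without numbers 23 and 24 (-1.47). The ratio's correlation with the number was -0.84 without those numbers and ran from -0.59 (without library 24, permutation p = 0.0315) to -0.27 over single omissions. The interaction changed sign over single omissions for Ednra (-0.21 to 0.90) and Ednrb (-1.41 to 0.54). The correlation of Ednra with Nos3 was 0.63 once diet and number were taken out (permutation p of the residuals, adjusted over 3 pairs, 0.0482). That permutation did not allow for the fit of diet and number, so the value is a description. The like values were -0.42 for Ednra with Ednrb and -0.19 for Ednrb with Nos3. The diets share no sample number. With consecutive numbers as a replicate block, Ednrb was -0.49 (edgeR, unadjusted p = 0.000569, adjusted p = 0.829), Ednra -0.25 and Nos3 -0.06, and Ednrb was lower on high salt in 6 of 7 such pairs. In that fit 665 of 11158 genes had an unadjusted p below 0.05, against 202 in the fit without blocks. Deviations from the diet means correlated at a mean of 0.278 over the 7 pairs and over 0.1 in 6 of them. Libraries 9 and 10 correlated at 0.583, the highest, and libraries 17 and 18 at -0.0992, the lowest. No label gives pairs, and for that reason the numbers were not taken as pairs. No such correlation was taken between libraries of different pairs, so the mean of 0.278 has no background beside it. What neighbouring libraries share was not tested. Ednra was not tested at 5 CPM in 7 libraries. Counting error, 13.5% and 11.9% as a coefficient of variation for Ednra, was below the spread between libraries of 33.6% and 25.4%.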

Other observations

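The balance between Nos3 and Ednrb, chosen after the values were seen, covered a wide range in both diets. There were 0.386 Nos3 counts per Ednrb count in normal salt library 10 and 2.995 in normal salt library 22. On high salt there were 0.564 in library 9 and 3.10 in library 21. Nos3 thus had fewer counts than Ednrb in libraries 9 and 10 and more in libraries 21 and 22. The course between was not even: the ratio was 2.65 in library 17, 1.35 in library 23 and 1.17 in library 24. Tags of the genes may be captured unequally, so the ratio is better compared between libraries than read as molecules. The log2 ratio correlated with the number (Pearson r = 0.68, permutation p = 0.00712, adjusted over 5 relations p = 0.0178, and Spearman rho = 0.75, permutation p = 0.00255, adjusted p = 0.00637), and without numbers 23 and 24 r was 0.88 (permutation p = 0.0002). Within normal salt r was 0.77 and within high salt 0.71 (n = 7 each, exact permutation p = 0.0337 and 0.0730). Its geometric mean was 1.44 on high salt and 1.07 on normal salt, a difference that was not tested. Over all 14 libraries only Nos3 of the 3 genes passed the trend test. Nos3 is part of this ratio, so this relation is not independent of that trend. Ednrb was called for the trend without numbers 23 and 24, and what it adds to the relation was not tested.

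Dixon's test for an outlier flagged no library within its diet for the CPM of the 3 genes or the receptor ratio, in 8 groups of 7 libraries. With 7 libraries a group, this test can miss a library that deviates.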
